A study of Mus musculus with 16 samples.

Results

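The genes described here are 10 genes of MHC antigen presentation, named by their symbols: H2-Aa, H2-Ab1, H2-Eb1, Cd74 and Ciita of the class II pathway, and B2m, H2-K1, H2-D1, Tap1 and Psmb8 of the class I pathway. They are 10 of the 18193 genes on the arrays, and 33 of the 34945 probe sets annotated to a single gene symbol measure them. The cultures were C57BL/6 mouse airway epithelium kept at an air-liquid interface, with air above the cells and medium below. Their RNA was measured in 4 groups of 4 arrays, with 1 array for each culture: Mmp7-null (Mmp7-/-) scratched, Mmp7-null uninjured, wild-type scratched and wild-type uninjured. Scratched cultures received 3 scratches with a pipet tip, and all cultures, controls included, spent 24 hours without serum before RNA was taken. Mmp7 encodes matrilysin, a secreted metalloproteinase of injured airway epithelium. Neither the time between scratch and harvest nor the animals behind each culture is given in the labels, so p-values measure only the spread between these 16 cultures.

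MHC molecules display peptides to T cells. Class I molecules, made of a heavy chain such as H2-K1 or H2-D1 and the light chain B2m, are built by nearly all cells. Their peptides are cut by the proteasome, whose immunoproteasome form contains Psmb8, and the transporter Tap1 carries them into the endoplasmic reticulum. Class II molecules are made of an alpha and a beta chain. H2-Aa is the alpha chain that pairs with the beta chain H2-Ab1, and H2-Eb1 is the beta chain of another isotype. Class II molecules travel with the invariant chain Cd74 and are found mainly on leukocytes, but also on some lung epithelial cells. Ciita is the master regulator of class II transcription, interferon gamma raises both pathways, and their promoters share a module bound by RFX, CREB family and NF-Y factors.

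Each gene was read from its leading probe set, the one with the highest mean over the 16 arrays, and all values are log2 of the deposited RMA intensity. Levels of different probe sets cannot be set against each other, because probes differ in brightness at equal RNA. Control transcripts that were absent from an array read up to 2.97 (95th percentile), which is used as a background estimate. By that estimate 8 of the 10 members were measured above background on average. Ciita was not: it read 2.56 to 2.71 on all 16 arrays. H2-Eb1 read 2.62 to 2.78 on every array except replicate 4 of the wild-type uninjured cultures, where it read 3.67. Differences of those genes are therefore not interpretable as levels of RNA. In a culture, fewer cells that express a gene and less RNA per cell cannot be told apart.

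Mmp7 itself read 2.13 to 2.59 on all arrays, below background in wild-type cultures too, so it cannot check the genotype labels. Spiked-in control transcripts divide the arrays into 3 sets whose meaning is not stated: Lys on replicates 1 and 4 of the scratched and 1 and 2 of the uninjured Mmp7-null cultures, Phe on the other 4 Mmp7-null arrays and on replicate 1 of each wild-type group, and Trpn on the other 6 wild-type arrays. The genotypes thus share only the Phe set. Finally, 3 arrays stood apart: Mmp7-null scratched 1 and wild-type scratched 3 had the lowest upper quartiles of intensity (119.1 and 115, against 125.8 to 134 on the others), and wild-type scratched 4 had the largest log2 excess of the 3' over the 5' actin probe set (2.62, against 1.53 to 1.93). Where a member's call depends on these arrays, its value without them is also given. The 9 airway epithelial marker genes examined all lay above background, among them Epcam (mean 11.68) and Cdh1 (13.41), and those that differed between the genotypes are given beside the other cell type markers.

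The promoter stretches below are shown because the module that class I and class II genes share can be read in them. Promoters were taken from RefSeq on mouse build GRCm38.p6, from 250 bases before to 50 bases after the start of transcription, and 7 of the 10 members were matched by symbol (H2-Ab1, Cd74 and Ciita were not). Capitals mark TGANG followed after 19 to 22 bases by ATTGG (searched on the gene's strand), and, where present, a match to TTTCNNTTC or GGGNNTTCC (searched on both strands). None of the capital runs overlap.
H2-Aa (chr17:34287847-34287972, minus strand): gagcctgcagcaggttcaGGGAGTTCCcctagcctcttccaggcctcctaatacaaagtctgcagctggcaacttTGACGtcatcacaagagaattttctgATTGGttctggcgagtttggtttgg
H2-Eb1 (chr17:34305709-34305832, plus strand): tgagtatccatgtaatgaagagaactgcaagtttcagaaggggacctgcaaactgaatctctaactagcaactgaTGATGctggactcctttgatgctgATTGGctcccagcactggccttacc
B2m (chr2:122147534-122147658, plus strand): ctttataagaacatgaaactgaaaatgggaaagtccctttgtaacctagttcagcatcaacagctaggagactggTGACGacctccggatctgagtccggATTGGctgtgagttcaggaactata
H2-K1 (chr17:34000348-34000463, minus strand): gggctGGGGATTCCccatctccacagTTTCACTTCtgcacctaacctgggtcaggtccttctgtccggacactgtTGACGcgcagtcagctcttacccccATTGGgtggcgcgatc
H2-D1 (chr17:35262918-35263042, plus strand): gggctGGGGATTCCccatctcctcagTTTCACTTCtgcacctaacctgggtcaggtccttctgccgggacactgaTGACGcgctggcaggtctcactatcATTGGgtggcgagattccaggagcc
These are the 5 of the 7 matched promoters that hold TGANG upstream of ATTGG on the gene's own strand. The space between them was 20 bases in B2m, H2-K1 and H2-D1, 21 bases in H2-Aa and 19 bases in H2-Eb1. Of all 32851 promoter windows of the same length, 0.67% hold this pair on the gene's strand and 1.19% on either strand. The spacing was set after these sequences had been read, so the match is a description. ATTGG alone, the core of the site of NF-Y, is common and occurs on either strand in 37.4% of windows. H2-K1 and H2-D1, the classical class I heavy chains, also share TTTCNNTTC, found in 7.52% of windows, and GGGNNTTCC, found in 5.82% of windows and also in H2-Aa. Neither the Tap1 nor the Psmb8 window holds the pair within these letters and spacing.

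The first comparison asks how uninjured Mmp7-null epithelium differs from uninjured wild-type epithelium. In all, 6 of the 10 members were lower in uninjured Mmp7-null than in uninjured wild-type cultures, and none was higher: H2-Aa, H2-Ab1 and Cd74 of class II, and B2m, H2-K1 and H2-D1 of class I. Of all 18193 genes, 4.79% passed the same test and 2.5% passed it as lower. All 10 members had a negative log2 fold change, with a median of -0.45, against -0.01 over all genes. A negative value was also found in 11297 of the 18193 genes, and the 10 include Ciita and H2-Eb1, below background on average. In 8 of the 10 members the 2 groups did not overlap, as for 6.22% of all genes in this direction. H2-Eb1 is among the 8.

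Of class II, H2-Aa, H2-Ab1 and Cd74 were lower. H2-Aa, the class II alpha chain, read 3.38, 4.18, 4.00 and 4.22 in replicates 1 to 4 of the uninjured Mmp7-null cultures, against 5.49, 5.47, 4.89 and 5.45 in the uninjured wild-type cultures. Every Mmp7-null value lay below every wild-type value, and the log2 fold change was -1.38 (SE 0.28, limma adjusted p = 0.013), which is 38.4% of the wild-type intensity. H2-Ab1, its beta chain partner, read 2.64, 3.06, 3.02 and 2.84 in uninjured Mmp7-null cultures, against 3.32, 4.11, 4.05 and 4.20 in uninjured wild-type cultures. The Mmp7-null cultures were around the background estimate, where smaller levels cannot be read, and the log2 fold change was -1.03 (SE 0.17, limma adjusted p = 0.0035). Cd74, the invariant chain that occupies the class II groove until peptide is loaded, read 6.30, 7.21, 7.33 and 7.41 in uninjured Mmp7-null cultures, against 8.24, 8.15, 8.41 and 8.40 in uninjured wild-type cultures. The genotypes were again apart on every array, with replicate 1 of the Mmp7-null cultures lowest, and the log2 fold change was -1.24 (SE 0.20, limma adjusted p = 0.0026). H2-Eb1 (log2 fold change -0.31, adjusted p = 0.41) and Ciita (-0.01, adjusted p = 0.98), both below background, did not pass the test.

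Of class I, the light chain and both classical heavy chains were lower. B2m, the light chain of every class I molecule, read 12.09, 12.61, 12.04 and 12.42 in uninjured Mmp7-null cultures, against 13.22, 13.00, 13.26 and 12.87 in uninjured wild-type cultures. The groups did not overlap and the log2 fold change was -0.80 (SE 0.13, limma adjusted p = 0.0037), or 57.4% of the wild-type intensity. H2-K1, a classical heavy chain, read 11.25, 11.68, 11.47 and 11.58 in uninjured Mmp7-null cultures, against 11.96, 11.85, 12.05 and 11.95 in uninjured wild-type cultures. H2-D1, the other classical heavy chain of this strain, read 12.06, 12.65, 12.37 and 12.53 in uninjured Mmp7-null cultures, against 12.85, 12.72, 12.88 and 12.92 in uninjured wild-type cultures. Both heavy chains were lower in Mmp7-null cultures with no overlap, by log2 fold changes of -0.46 (SE 0.09, adjusted p = 0.013) for H2-K1 and -0.44 (SE 0.10, adjusted p = 0.023) for H2-D1. The gap between the highest Mmp7-null and the lowest wild-type array was small for H2-D1, 12.65 against 12.72. Its call was lost when Mmp7-null replicate 3 (-0.43, adjusted p = 0.061) or wild-type replicate 1, 3 or 4 was left out (-0.44, -0.42 and -0.41, adjusted p = 0.062, 0.062 and 0.065), and when only the uninjured arrays were fitted (adjusted p = 0.098). H2-K1, H2-D1 and other class I heavy chain genes are near-identical copies, and their leading probe sets may cross-hybridise, so the 2 values are not independent.

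The peptide supply genes did not pass the test in uninjured cultures. Tap1, a subunit of the peptide transporter, read 6.44, 6.73, 6.32 and 6.58 in uninjured Mmp7-null cultures, against 6.75, 6.72, 7.37 and 7.01 in uninjured wild-type cultures. Its groups touched at 6.73 against 6.72, and the log2 fold change was -0.45 (95% interval -0.78 to -0.11, adjusted p = 0.13). Psmb8, a catalytic subunit of the immunoproteasome, read 7.93, 8.41, 7.94 and 8.40 in uninjured Mmp7-null cultures, against 8.57, 8.56, 8.68 and 8.58 in uninjured wild-type cultures. Its groups did not overlap, and the log2 fold change was -0.43 (95% interval -0.73 to -0.12, adjusted p = 0.12). Without the 3 arrays that stood apart, all of them scratched, Psmb8 was called at the same value (-0.43, adjusted p = 0.045), which made 7 members.

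**Figure D1:**
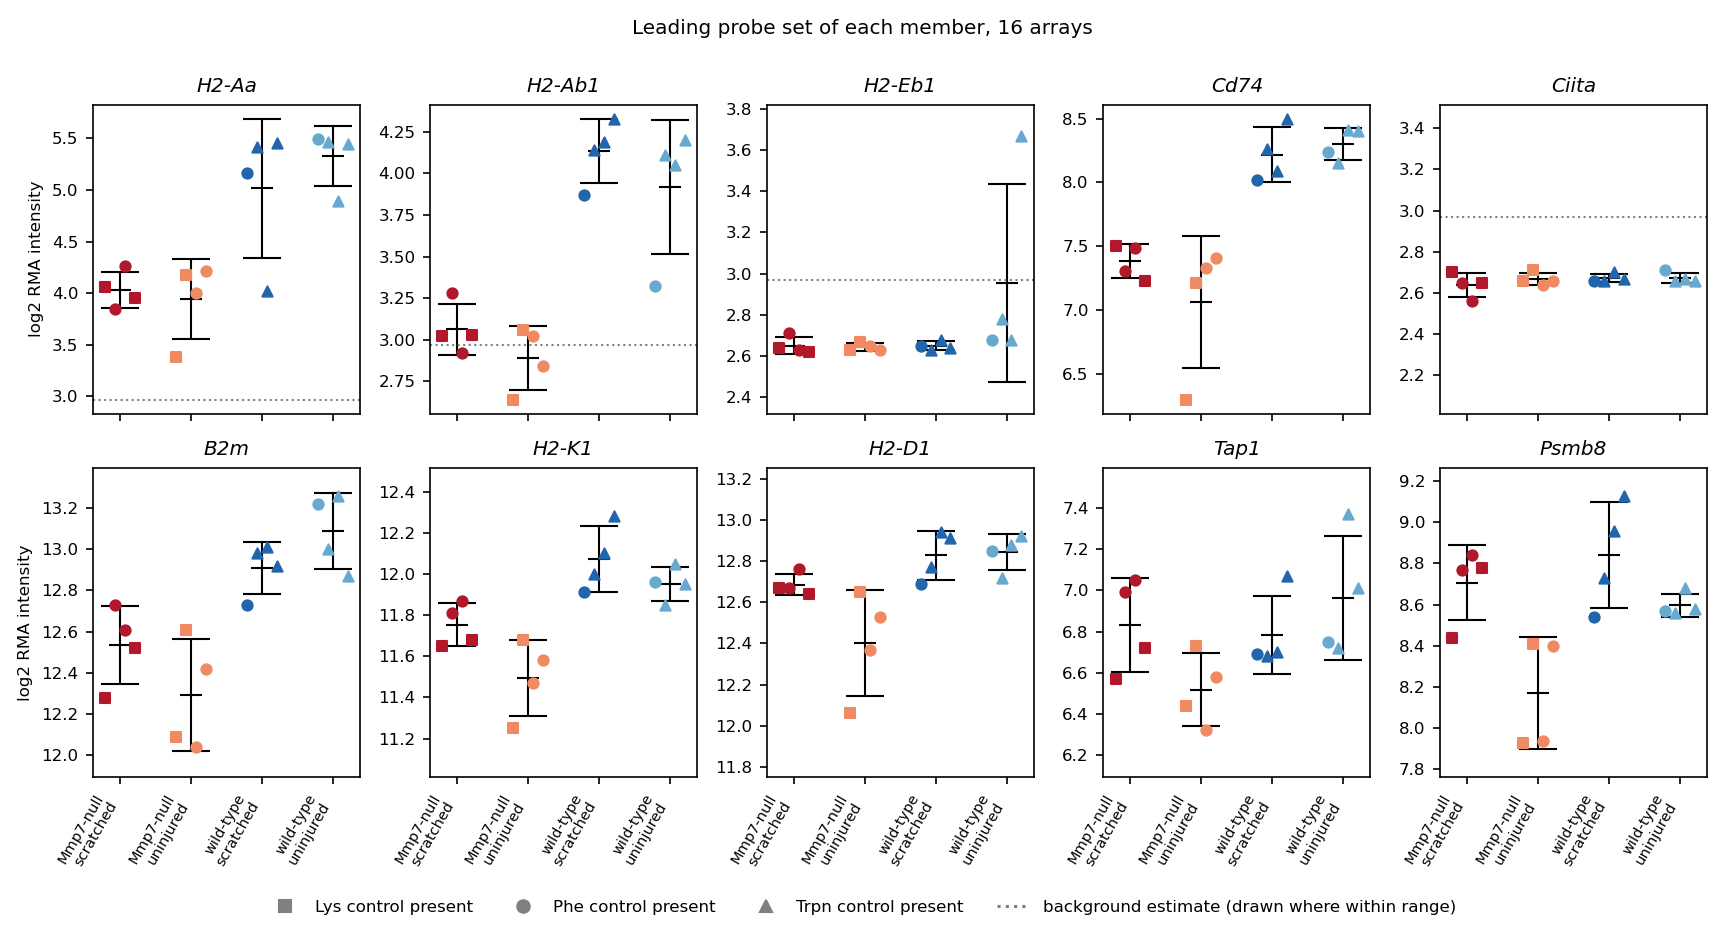
Log2 RMA intensity of the leading probe set of each of the 10 members on the 16 arrays, by group; each point is 1 culture, its shape gives the spike-in set, and bars show the mean and SD of 4 cultures. Cd74 lies below 7.6 on all Mmp7-null arrays and above 8 on all wild-type arrays, whereas Ciita stays below the dotted background estimate on every array; each panel has its own axis.

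None of these calls held when the model took the spike-in sets as a block. With the block, 57 of all genes were called for genotype in uninjured cultures, against 872 without it. H2-Aa then differed by -1.44 (SE 0.42, adjusted p = 0.2), B2m by -0.74 (SE 0.20, adjusted p = 0.17), Cd74 by -0.94 (SE 0.26, adjusted p = 0.18) and H2-Ab1 by -0.56 (SE 0.16, adjusted p = 0.18). For H2-K1 and H2-D1 the values were -0.32 (adjusted p = 0.45) and -0.34 (adjusted p = 0.51). All 10 members kept a negative value with the block, counting H2-Eb1 and Ciita, which are below background. They did so also within the Phe arrays alone, which hold 2 uninjured Mmp7-null cultures and 1 uninjured wild-type culture, with -1.38 for H2-Aa, -0.87 for Cd74, -0.99 for B2m, -0.44 for H2-K1 and -0.40 for H2-D1. H2-Ab1 differed within the Phe arrays by -0.39, and its Phe array was the lowest of the uninjured wild-type group (3.32) and of the scratched wild-type group (3.87). Within uninjured wild-type cultures H2-Ab1 was 0.80 higher on the 3 Trpn arrays than on the 1 Phe array (adjusted p = 0.29, in a comparison that called 32 of 18193 genes). The within-set values were an addition made with the data in view.

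**Figure D2:**
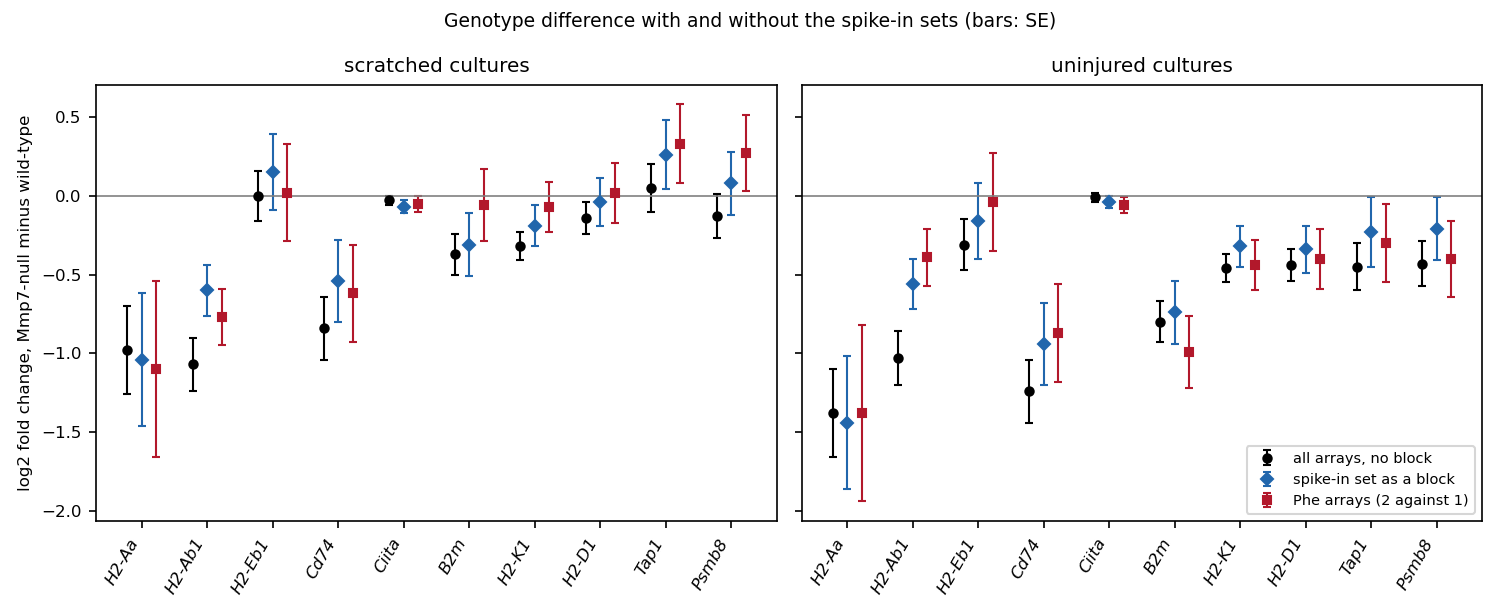
Log2 fold change of Mmp7-null over wild-type cultures for each member in scratched (left) and uninjured cultures (right), with bars of 1 SE: all arrays (black circles), spike-in set as a block (blue diamonds) and Phe arrays only (red squares). In uninjured cultures every point lies below 0, and H2-Ab1 moves most, with -1.03 without the block and -0.56 with it; in scratched cultures Tap1 lies above 0 in all 3.

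Class II genes are also leukocyte genes. Of 18 measured leukocyte markers, 6 lay above background on average: Lyz2 (mean 13.04), Csf1r (3.78), Laptm5 (3.55), Ms4a1 (3.37), Aif1 (3.09) and Adgre1 (3.00). Among the other 12, Ptprc (mean 2.36), Tyrobp (2.10), Itgax (2.06), Cd52 (2.41) and Cd53 (2.59) were below background on all 16 arrays. None of the 18 passed the test in any comparison by limma, with 1 at an unadjusted p under 0.05 for genotype in uninjured and 1 in scratched cultures. The lowest adjusted p in uninjured cultures, 0.063, was that of Csf1r, a receptor of macrophages (log2 fold change -0.72). The summed intensity of the list apart from Lyz2, which lung epithelium also makes, ran from 106 to 112.2 in uninjured Mmp7-null cultures and from 113.8 to 118.9 in uninjured wild-type cultures. In scratched cultures it ran from 105.5 to 119.7 for Mmp7-null and from 120.2 to 124 for wild-type. These sums did not overlap between genotypes, though most genes of the list were below background. Csf1r had the largest genotype difference of the summed genes in uninjured cultures (group mean 3.31 in Mmp7-null, against 4.03 in wild-type). The gap between the uninjured sums thus largely follows that uncalled gene and does not describe the list as a whole. Of all genes, 28.5% were apart with Mmp7-null lower in scratched cultures and 6.22% in uninjured cultures. The endothelial list, with 0 of 5 genes above background, was also apart in scratched cultures. Its sums ran from 23.19 to 23.79 in Mmp7-null, against 23.95 to 25.58 in wild-type, and overlapped in uninjured cultures. The part of the leukocyte sums in the class II difference was not tested.

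Epithelial markers also differed between the genotypes in the model without the spike-in block. Over all genes, the block cut the genotype calls from 872 to 57 in uninjured cultures and from 1130 to 252 in scratched cultures. Marker values with the block are not given here, so these calls carry the same limit as those of the members. Of the 9 airway markers, Foxj1, a factor of ciliated cells, was higher in uninjured Mmp7-null cultures (0.52, adjusted p = 0.023) and in scratched ones (0.93, adjusted p = 5e-04). Cdh1, or E-cadherin (-0.23, adjusted p = 0.014), and the basal cell keratin Krt5 (-0.36, adjusted p = 0.041) were lower in uninjured Mmp7-null cultures. The summed intensity of the airway list ran from 41970 to 45750 in uninjured Mmp7-null cultures, against 46690 to 48470 in uninjured wild-type cultures, and the sums of scratched cultures overlapped (50840 to 55290 in Mmp7-null, against 49130 to 53430 in wild-type). Of 8 alveolar type 1 markers, 5 were lower in uninjured Mmp7-null cultures, among them Ager (log2 fold change -2.29, SE 0.21, adjusted p = 8.1e-05), and 6 in scratched Mmp7-null cultures. The summed intensity of that list ran from 19460 to 23250 in uninjured Mmp7-null cultures, against 26640 to 27460 in uninjured wild-type cultures, and from 16040 to 19820 in scratched Mmp7-null cultures, against 24280 to 28210 in scratched wild-type cultures. Of 9 alveolar type 2 markers, 1 was higher in uninjured Mmp7-null cultures (Sftpc, 1.5, SE 0.15, adjusted p = 0.00017) and 1 was lower (Lpcat1, -0.32, adjusted p = 0.0025). In scratched Mmp7-null cultures Sftpc was higher (1.8, limma adjusted p = 3.6e-05) and Abca3 lower (-0.43, adjusted p = 0.012). The summed intensity overlapped between uninjured Mmp7-null (13350 to 15810) and uninjured wild-type cultures (14790 to 16970). It also overlapped in scratched cultures (18130 to 19010, against 18520 to 21890). Sftpd (mean 13.98, with Abca3 next at 8.91) makes up most of these sums, so they say little about the other markers. Of the markers of other cells, 0 of 5 endothelial genes and 1 of 6 fibroblast genes lay above background. The fibroblast gene was Dcn, a matrix proteoglycan, which was higher in uninjured Mmp7-null than in uninjured wild-type cultures (1.00, SE 0.20, adjusted p = 0.011) and higher after scratching in Mmp7-null (1.23, adjusted p = 0.0036) and in wild-type cultures (1.58, adjusted p = 0.00031). The summed intensity of the fibroblast list ran from 60.7 to 94.3 in uninjured Mmp7-null cultures, against 46.7 to 57.9 in uninjured wild-type cultures. After scratching it ran from 129.8 to 154.5 in Mmp7-null cultures, against 88.7 to 108.2 in wild-type cultures. No fibroblast gene was called for genotype in scratched cultures, where Dcn, the brightest of the list, differed by 0.65 (limma adjusted p = 0.08). The part of these airway, alveolar and fibroblast markers in the differences of the MHC genes was not tested.

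Every probe set of the members was examined in the same way over 45037 probe sets. Of the 33 probe sets, 17 carry the suffix x_at and 2 the suffix s_at, which mark probes that may bind more than 1 transcript. The leading probe sets of H2-Aa, H2-K1 and H2-D1 (x_at) and of H2-Ab1 (s_at) are among them. In all, 19 lay above background: 2 for H2-Aa, 1 for H2-Ab1, 1 for Cd74, 2 for B2m, 4 for H2-K1, 6 for H2-D1, 1 for Tap1 and 2 for Psmb8. In uninjured cultures all 19 had a negative genotype difference and 10 were called lower, against 1.05% of all probe sets called lower. The second B2m probe set differed by -0.76 (adjusted p = 0.01), close to the leading one. A dimmer H2-K1 probe set differed by -0.62 (adjusted p = 0.015), and a pair of dimmer H2-D1 probe sets by -0.46 (adjusted p = 0.02) and -0.58 (adjusted p = 0.023). All H2-K1 and H2-D1 probe sets called in uninjured cultures carry the suffix x_at. The only H2-D1 probe set above background without it was not called (-0.45, limma adjusted p = 0.16). Nor was the second H2-K1 probe set (-0.45, adjusted p = 0.061). The second H2-Aa probe set, near background, differed by -0.68 (adjusted p = 0.1). Averaging all probe sets of a gene gave smaller differences for H2-Aa (-0.59, adjusted p = 0.0063) and H2-Ab1 (-0.50, adjusted p = 0.037) than for B2m (-0.78, adjusted p = 0.0039) and Cd74 (-1.24, adjusted p = 0.0028), and H2-D1 was not called (-0.25, adjusted p = 0.057). The 2 Psmb8 probe sets disagreed: the leading one differed by -0.43 and the dimmer one by -0.01 in uninjured cultures, whereas in scratched cultures the leading one differed by -0.13 and the dimmer one by -0.54 (adjusted p = 0.037). In scratched cultures 18 of the 19 differences were negative and 4 probe sets were called lower, against 1.31% of all probe sets; besides H2-Ab1, Cd74 and Psmb8 these include the dimmest H2-K1 probe set, at -0.93 (adjusted p = 0.023).

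**Figure D3:**
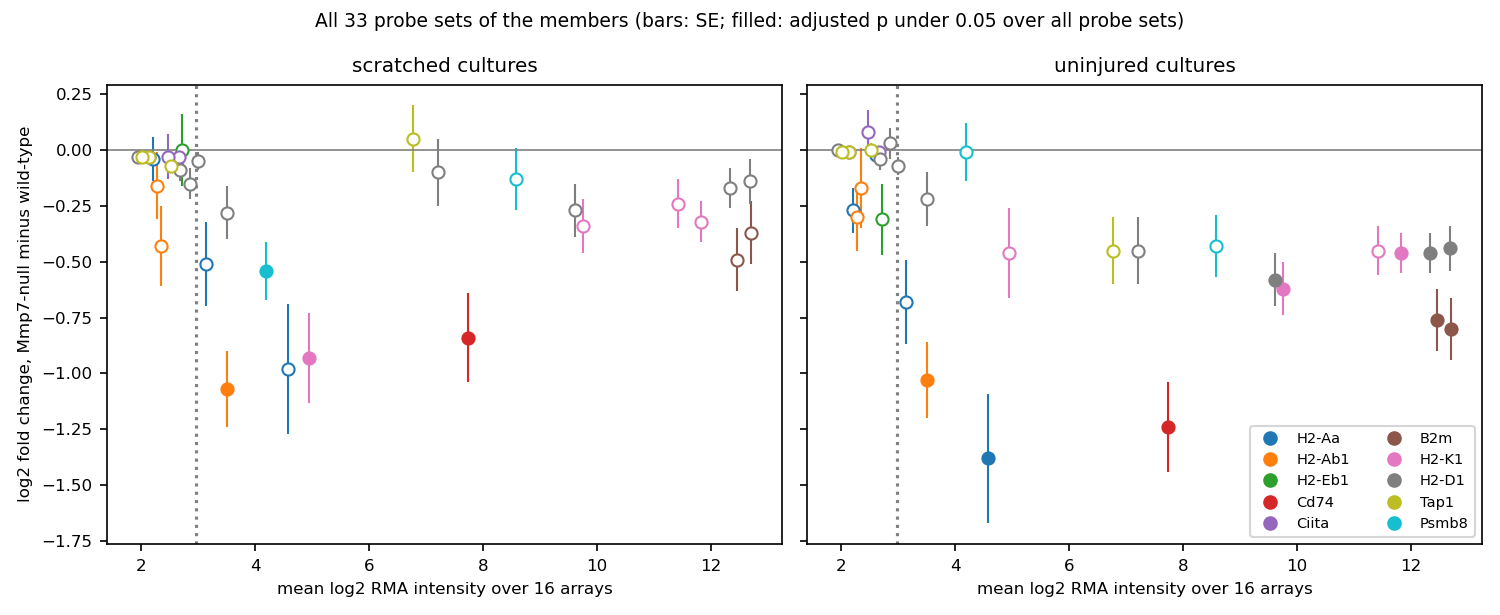
Log2 fold change of Mmp7-null over wild-type cultures against mean log2 intensity for all 33 probe sets of the 10 members, in scratched (left) and uninjured cultures (right), with bars of 1 SE and filled points for adjusted p under 0.05. To the right of the dotted background estimate (2.97) all 19 probe sets lie below 0 in uninjured cultures and 18 in scratched cultures.

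The second comparison asks the same of scratched cultures. H2-Ab1 and Cd74, 2 of the 10 members, were lower in scratched Mmp7-null than in scratched wild-type cultures and none was higher, against 6.21% of all genes called and 2.92% called lower. H2-Ab1 read 3.02, 3.28, 2.92 and 3.03 in scratched Mmp7-null cultures, against 3.87, 4.14, 4.19 and 4.33 in scratched wild-type cultures. The log2 fold change was -1.07 (SE 0.17, limma adjusted p = 0.002), or 47.7% of the wild-type intensity. These Mmp7-null values lay around the background estimate, so the percentage is not a level of remaining RNA. Cd74 read 7.50, 7.31, 7.49 and 7.23 in scratched Mmp7-null cultures, against 8.02, 8.26, 8.09 and 8.50 in scratched wild-type cultures. Its log2 fold change was -0.84 (SE 0.20, limma adjusted p = 0.021), or 55.9% of the wild-type intensity, and neither gene's groups overlapped. Groups that do not overlap were common in this comparison: 32.7% of all genes were apart, and 28.5% were apart with Mmp7-null lower. Among the members 3 were apart, namely H2-Ab1, Cd74 and H2-K1. The Cd74 call was lost when replicate 2 or 4 of the Mmp7-null cultures was left out (-0.81 and -0.79, adjusted p = 0.058 for both), or replicate 2 or 4 of the wild-type cultures (-0.82, adjusted p = 0.052, and -0.74, adjusted p = 0.055).

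H2-Aa missed the threshold in scratched cultures, where its wild-type arrays were widely spread. It read 4.06, 3.85, 4.26 and 3.95 in scratched Mmp7-null cultures, against 5.16, 5.42, 4.02 and 5.46 in scratched wild-type cultures. Replicate 3 of the wild-type cultures lay within the Mmp7-null range. The log2 fold change was -0.98 (SE 0.28, adjusted p = 0.059), and without that replicate it was -1.32 (SE 0.20, adjusted p = 0.0028). It was also called when replicate 1 of the uninjured Mmp7-null cultures left the shared estimate of spread (adjusted p = 0.046). Leaving out the 3 arrays that stood apart gave -1.27 (adjusted p = 0.02) for H2-Aa, but the calls for H2-Ab1 (-0.93, adjusted p = 0.06) and Cd74 (-0.80, adjusted p = 0.15) were lost. No member was called when the sets were blocked, with -1.04 for H2-Aa (adjusted p = 0.33), -0.60 for H2-Ab1 (adjusted p = 0.092) and -0.54 for Cd74 (adjusted p = 0.43). Within the Phe arrays, again 2 Mmp7-null against 1 wild-type culture, the values were -1.10, -0.77 and -0.62 in the same order.

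No class I member passed the test between scratched cultures. B2m read 12.28, 12.73, 12.61 and 12.52 in scratched Mmp7-null cultures, against 12.73, 12.98, 13.01 and 12.92 in scratched wild-type cultures. The groups touched at 12.73, and the log2 fold change of -0.37 (SE 0.13, adjusted p = 0.13) did not pass the test. H2-K1 read 11.65, 11.81, 11.87 and 11.68 in scratched Mmp7-null cultures, against 11.91, 12.00, 12.10 and 12.28 in scratched wild-type cultures. Its log2 fold change of -0.32 (SE 0.09, adjusted p = 0.061) did not pass, though it did without wild-type scratched replicate 1 (-0.38, adjusted p = 0.042) or without Mmp7-null uninjured replicate 1 (adjusted p = 0.031). H2-D1, at -0.14 (95% interval -0.36 to 0.08), Psmb8, at -0.13 (-0.44 to 0.18), and Tap1, at 0.05 (-0.29 to 0.38), did not pass the test either. H2-D1 read 12.67, 12.67, 12.76 and 12.64 in scratched Mmp7-null cultures, against 12.69, 12.77, 12.94 and 12.91 in scratched wild-type cultures. Within the Phe arrays B2m differed by only -0.06, and Tap1 and Psmb8 were 0.33 and 0.27 higher in Mmp7-null cultures, with no call.

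The next pair of comparisons asks what a scratch does in each genotype. In Mmp7-null cultures 1 member, Psmb8, was higher after scratching, against 4.72% of all genes called and 2.27% called higher. Psmb8 read 8.44, 8.77, 8.84 and 8.78 in scratched Mmp7-null cultures, against 7.93, 8.41, 7.94 and 8.40 in uninjured Mmp7-null cultures. The groups did not overlap (as for 4.1% of genes in this direction), with 8.44 against 8.41 at the closest, and the log2 fold change was 0.54 (SE 0.14, limma adjusted p = 0.045). That call was made under 12 of 28 alternative settings, with adjusted p from 0.013 to 0.16, and blocking on the spike-in sets gave an adjusted p of 0.057. Leaving out uninjured replicate 1 or 3 gave 0.46 (adjusted p = 0.13 for both), and leaving out scratched replicate 2, 3 or 4 gave 0.52, 0.49 and 0.52 (adjusted p = 0.094, 0.12 and 0.089). The wild-type arrays enter only through the shared spread, and the call was also lost without any 1 of the uninjured wild-type arrays or without scratched wild-type replicate 2 or 3 (adjusted p = 0.055 to 0.063). Within the Lys and the Phe arrays the difference was 0.44 and 0.64. The dimmer Psmb8 probe set was not called in Mmp7-null cultures.

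The other 4 class I members had positive differences in Mmp7-null cultures and did not pass the test. H2-D1 differed by 0.28 (95% interval 0.06 to 0.50, adjusted p = 0.14), H2-K1 by 0.25 (0.05 to 0.46, adjusted p = 0.16), Tap1 by 0.32 (-0.02 to 0.65, adjusted p = 0.32) and B2m by 0.25 (-0.05 to 0.54, adjusted p = 0.4). Tap1 read 6.57, 6.99, 7.05 and 6.72 in scratched Mmp7-null cultures, against the uninjured values given above, and the groups overlapped. Of the class II members, Cd74 differed by 0.32 (adjusted p = 0.48), H2-Ab1 by 0.17 (adjusted p = 0.74) and H2-Aa by 0.08 (adjusted p = 0.89). Over the 10 members 9 values were positive, with a median of 0.25, against -0.02 over all genes. The 9 include H2-Eb1, which is below background and differed by 0.00.

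In wild-type cultures no member was called by limma after scratching, against 4.85% of all genes, and none reached an unadjusted p under 0.05, as 16.5% of all genes did. The member differences ran from -0.31 for H2-Aa (95% interval -0.93 to 0.31) to 0.24 for Psmb8 (-0.06 to 0.55). Psmb8 read 8.54, 8.73, 8.96 and 9.13 in scratched wild-type cultures, against 8.57, 8.56, 8.68 and 8.58 in uninjured wild-type cultures. Scratched values thus lay both below and above the uninjured range. The dimmer Psmb8 probe set was higher in scratched wild-type cultures (0.58, SE 0.13, adjusted p = 0.031 over all probe sets). Tap1 read 6.69, 6.68, 6.70 and 7.07 in scratched wild-type cultures, against 6.75, 6.72, 7.37 and 7.01 in uninjured wild-type cultures, and the groups overlapped.

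Whether the genotypes responded differently to the scratch was tested as the Mmp7-null response minus the wild-type response. No member passed, against 0.132% of all genes, and 2 reached an unadjusted p under 0.05, as 7.79% of all genes did. Those were B2m, with a difference of 0.43 (95% interval 0.01 to 0.84, adjusted p = 0.61), and Tap1, with 0.49 (0.02 to 0.96, adjusted p = 0.6). For the class II chain H2-Ab1 the difference was -0.04 (-0.57 to 0.49). A genotype difference called in uninjured and not in scratched cultures, as for H2-Aa, B2m, H2-K1 and H2-D1, is thus not shown to differ between the states.

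**Figure D4:**
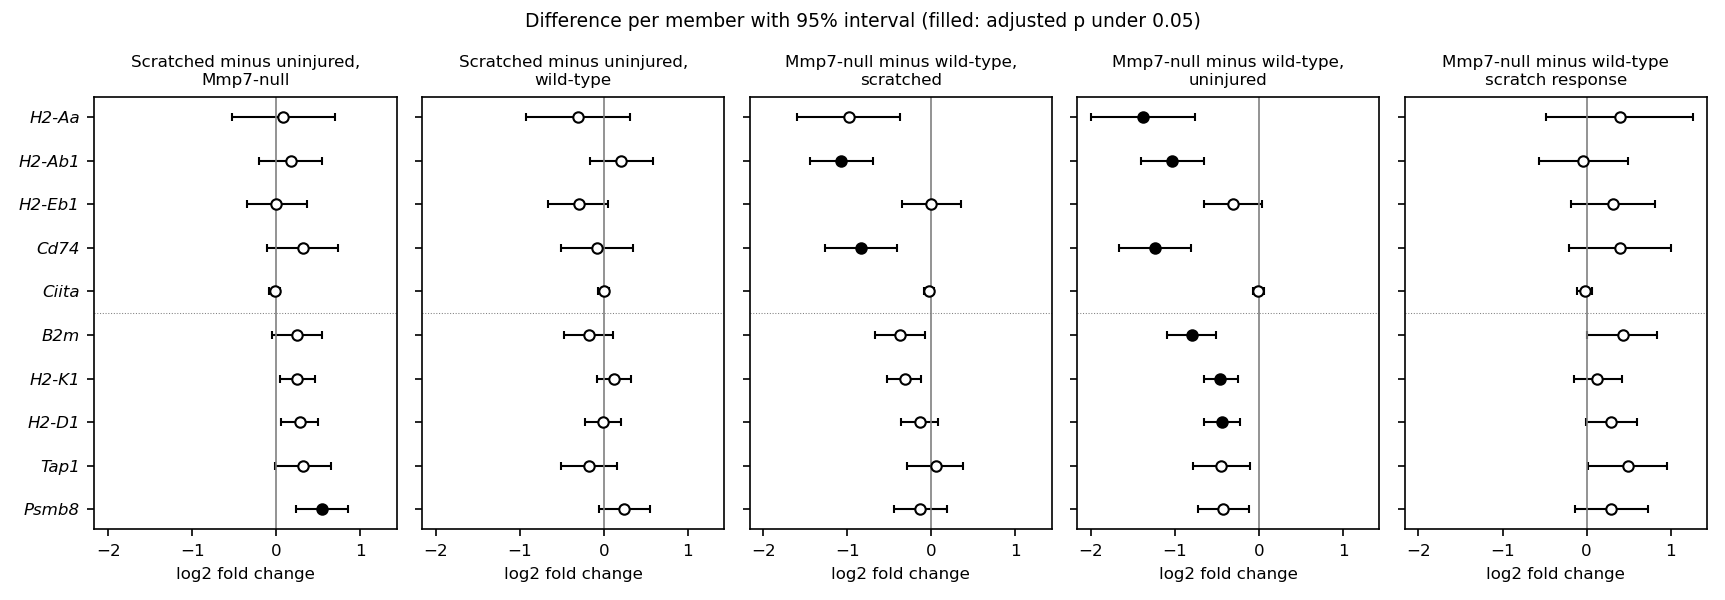
Log2 fold change of each member with its 95% interval in the 5 comparisons, with filled points for adjusted p under 0.05 over all genes. Filled points appear for Psmb8 in scratched Mmp7-null cultures, for 2 members in the scratched genotype comparison and for 6 in the uninjured one; the difference of responses has none.

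The correlations that follow leave out H2-Eb1 and Ciita, which are below background, and describe the other 8 members. Subtracting group means removes differences of genotype and state. Differences between spike-in sets within a group remain, because each group mixes sets. Over the 16 arrays, and after subtracting each group's mean, the 10 pairs of class I members had a median Pearson r of 0.71 (0.48 to 0.87). The 3 pairs among H2-Aa, H2-Ab1 and Cd74 had a median of 0.39, with 0 for H2-Aa with H2-Ab1 and 0.53 for H2-Aa with Cd74. Between the classes the median over 15 pairs was 0.32, with a range from -0.01 to 0.78. Cd74 had its highest values there, with H2-D1 (0.78) and H2-K1 (0.73). H2-Ab1 lay around background in Mmp7-null cultures, which limits its correlations. Without subtracting group means, all 28 pairs of these 8 members ran from 0.39 to 0.93. Among 11647 other genes above background, the levels most like H2-Aa over the 16 arrays were those of Grasp (r = 0.95), Ephb3 (0.92), Cd59a (0.91), Glis2 (0.91) and AU018091 (0.91). For H2-K1 they were Zfp703 (0.93), Itga3 (0.93), Hpn (0.92), Rras (0.92) and Cxcl16 (0.92).

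The other genes of the pathway showed few differences in the model without the spike-in block, the only model given for them here. Of 19 measured genes that assist class II presentation, 13 lay above background on average, and a decrease of the rest could not be read. None of the 19 was called for genotype in uninjured cultures by limma, with 3 at an unadjusted p under 0.05. In scratched Mmp7-null cultures 2 of the 19 were lower than in scratched wild-type cultures: Ifi30, a thiol reductase of antigen processing (-0.40, SE 0.08, adjusted p = 0.008), and Rfxank, a subunit of the RFX factor (-0.38, SE 0.10, adjusted p = 0.04). Ifi30 was also lower in scratched than in uninjured Mmp7-null cultures (-0.34, adjusted p = 0.03). Of 21 measured genes that assist class I presentation, 18 lay above background on average. None of the 21 was called in any comparison, with 4 at an unadjusted p under 0.05 for genotype in uninjured cultures. The lowest adjusted p there was that of Tap2, the partner of Tap1 (-0.50, SE 0.14, adjusted p = 0.067), and the chaperone Tapbp followed (-0.30, adjusted p = 0.092); both were picked after their values were seen. The median genotype difference in uninjured cultures was -0.01 for the class II list and -0.07 for the class I list, against -0.45 for the members. These medians include the genes below background.

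Of 15 measured genes that feed interferon signals into the pathway, 12 lay above background on average. None of the 15 was called by limma for genotype in either state, with 1 at an unadjusted p under 0.05 in each. Ifngr1, a chain of the interferon gamma receptor, was higher in scratched than in uninjured wild-type cultures (0.38, SE 0.08, adjusted p = 0.02). Ifng (mean 2.44) and Nlrc5, the class I counterpart of Ciita (2.51), were below background on average, as was Ciita. H2-K1, Tap1, Psmb8, H2-Ab1, H2-Aa and H2-Eb1 lie in that order in the MHC region of chromosome 17. From H2-K1 to H2-Eb1, 12 other protein-coding genes were measured, 8 of them above background, and none was called in any comparison by limma, with 2 at an unadjusted p under 0.05 for genotype in uninjured cultures. There 10 of the 12 had a negative genotype difference, with a median of -0.07 and a range from -0.50 (Tap2, adjusted p = 0.067) and -0.30 (Psmb9, adjusted p = 0.52) to 0.03 (Ring1).

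**Figure D5:**
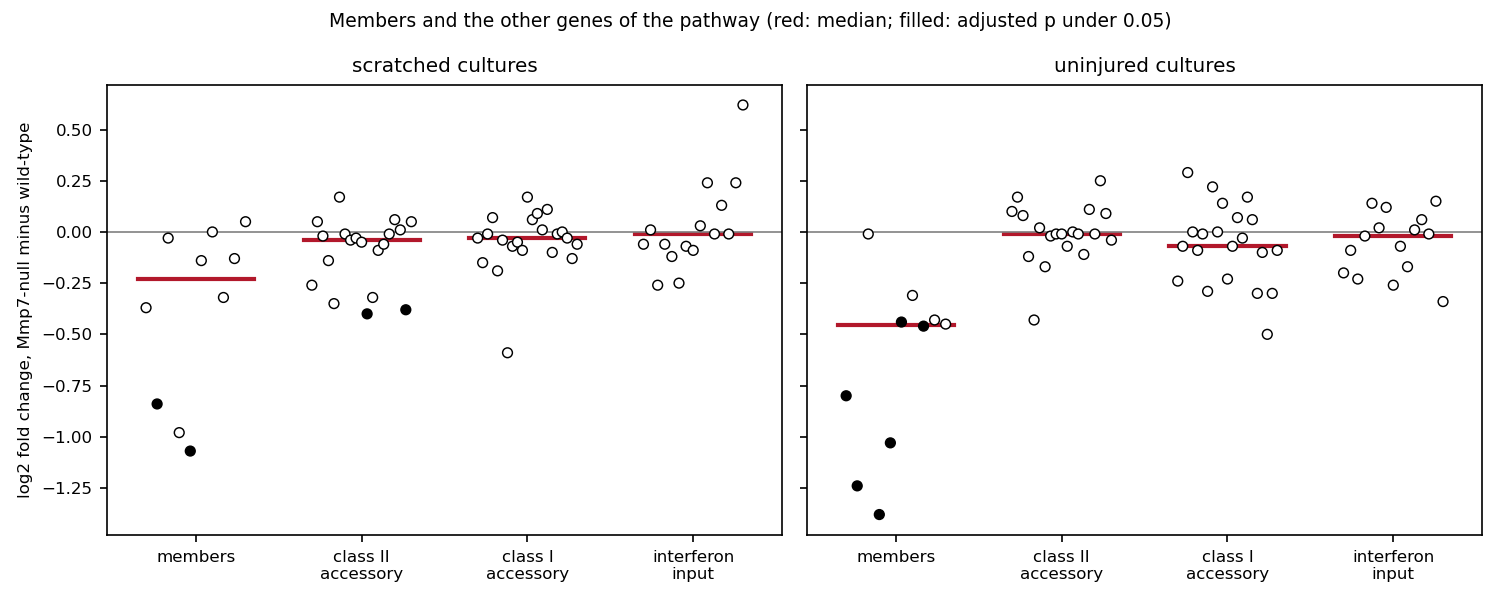
Log2 fold change of Mmp7-null over wild-type cultures for the 10 members, 19 class II accessory genes, 21 class I accessory genes and 15 interferon input genes in scratched (left) and uninjured cultures (right), with red lines at the medians and filled points for adjusted p under 0.05. In uninjured cultures the filled points all belong to the members, whose median is -0.45, while the list medians lie between -0.07 and -0.01. Genes below background are included.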

How the data were processed

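RNA of 16 cultures was measured on Affymetrix arrays, 1 per culture. The deposited table holds intensity values on a linear scale, which the authors made with RMA (background correction, normalization between arrays, summary per probe set), per the submitters' processing notes; the version is not given in the sources used here. The labels name the 430A 2.0 array, whereas the table's 45101 probe sets are those of a larger array of the same family; the table was used as it is. The deposited intensities were converted to log2, with no further normalization.

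Control probe sets apart, 45037 remained, and 34945 of them carried a single symbol. The brightest probe set stood for each of the 18193 genes; 3 probe sets that name a member together with another gene were left out. A model with 1 mean per group (limma 3.58.1 in R 4.3.3, lmFit and eBayes, 12 residual degrees of freedom) was fitted to all 16 arrays, with Benjamini-Hochberg adjustment across all genes and a limit of 0.05 on the adjusted p. The fit was tested on simulated data. The number of arrays limits the precision: the median standard error was 0.1 (log2) for a scratch or genotype difference and 0.14 for the difference of responses. Cultures with the same replicate number in 2 groups were not treated as pairs, because the labels name no pairing. The correlation of their deviations ran from -0.22 to 0.34, which cannot exclude a pairing.

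The members, lists, doubtful arrays and sets were chosen with earlier results of these data known. By rule the text names the 10 members, called genes of the accessory lists and the 5 genes most like H2-Aa and H2-K1; cell type markers and a few genes without a call (Tap2, Tapbp, Psmb9, Ring1, Csf1r, Ifng, Nlrc5) were named outside it, with values in view. Alternatives changed the samples, covariates, filter, probe set rule, variance model, normalization and offset.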

Additional observations from a re-analysis of the deposited data

Results flagged for a closer look

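Dixon's test for a single outlying culture was run for the 10 members in the 4 groups, and 5 of the 40 groups held one; chance alone gives about 1 in 20. In uninjured wild-type cultures, H2-Aa read 4.89 in replicate 3, against 5.45 to 5.49 in the others. In the same group H2-Ab1 read 3.32 in replicate 1, the group's only Phe array, against 4.05 to 4.20, and H2-Eb1 read 3.67 in replicate 4, against 2.68 to 2.78. H2-Eb1 in scratched Mmp7-null cultures read 2.71 in replicate 2, against 2.62 to 2.64, all below background. Tap1 in scratched wild-type cultures read 7.07 in replicate 4, against 6.68 to 6.70; that array is 1 of the 3 that stood apart. No member's scratch response differed between the genotypes by the adjusted test.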

How the results depend on the processing

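Each comparison was repeated under 28 alternatives, 16 of which leave out 1 array. No called difference changed its sign. The spike-in set as a block ended the calls: 0 members for genotype in uninjured cultures (6 in the model without it), 0 in scratched cultures (2), 0 for scratch in Mmp7-null cultures (1) and 0 of the dimmer probe sets (7 over all comparisons). Apart from that block, H2-Aa, H2-Ab1, Cd74 and B2m were called lower in uninjured Mmp7-null cultures under all of the other alternatives, H2-K1 under 26 of 28 and H2-D1 under 21 of 28. For genotype in scratched cultures, 4 members were called without the dimmest 40% of genes, with the mean of all probe sets, with a trended and robust variance and with each array centred on its median, as H2-Aa and H2-K1 joined; 1 was called without the 3 doubtful arrays. Leaving out 1 array gave 1 to 4 members there: 4 without replicate 1 of the uninjured Mmp7-null cultures, and 1 without replicate 2 or 4 of either scratched group. For scratch in Mmp7-null cultures 0 members were called with only the arrays compared, with the mean of all probe sets, with the probe set of largest variance and with an offset of 16, and 0 to 1 when 1 array was left out. The mean of all probe sets called 1 member, Psmb8 (0.41, adjusted p = 0.043), for scratch in wild-type cultures. Leaving out 1 array gave 2 to 8 calls among the dimmer probe sets and 5 to 6 members for genotype in uninjured cultures. The cause of these changes was not tested. With the replicate number as a block, 6 members were called for genotype in uninjured cultures, 2 in scratched cultures, 1 for scratch in Mmp7-null cultures and 5 dimmer probe sets, and no member's call changed; the numbers mark no shared animal or day in the labels, and 3 of 16 comparisons had their own number as best match. Signal over background limits H2-Eb1 and Ciita, and in Mmp7-null cultures H2-Ab1.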
